A study of Mus musculus with 4 samples.

Results

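Chemokines and their receptors were followed in lung tissue carrying metastases of 4T1, a mouse triple-negative breast cancer (TNBC) cell line. The members are the protein-coding genes of the count table whose symbol starts with Ccl, Cxcl, Cx3cl, Xcl, Ccr, Cxcr, Cx3cr, Xcr or Ackr followed by a digit, without the CCR2 ligand genes Ccl2, Ccl7, Ccl8 and Ccl12 and without Cxcl15 and Cxcr2. This rule left 56 of the 56748 genes in the table, 34 ligand genes and 22 receptor genes, and it used no measured value. Bulk RNA was sequenced from the saline group (2 libraries) and the group given cmLumiOpto/PARPi (2 libraries). Both groups were female BALB/cJ mice, 7 weeks old when luciferase-expressing 4T1 cells were injected into the tail vein, and treatment lasted 3 weeks. cmLumiOpto is a gene therapy in which a cfos promoter drives a luciferase and a light-gated channel sent to mitochondria, carried by AAV in exosomes coupled to a CD276 antibody, and it was given with the luciferase substrate ViviRen and the PARP inhibitor olaparib. The treated group thus differs from saline by the vector, the substrate and the inhibitor together, and their parts cannot be told apart. The controls are called saline in the study and PBS in the sample labels, and the material is called lung tissue with metastasis in the study and tumour cells taken from lung in the labels. Both epithelial tumour keratins and lung genes were abundant: Krt8 had 1144 and 1560 CPM (read counts scaled for library size) in saline and 998 and 1640 CPM after treatment. Sftpc, the surfactant gene of alveolar type 2 cells, had 1020 and 176 CPM against 6153 and 2092 CPM. Lung epithelium was therefore part of each library, and of the basal keratin genes Krt14 had 42.9 to 54.1 CPM, Krt5 at most 2.59 CPM and Krt6a at most 0.058 CPM.

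Chemokines are small secreted proteins that direct leukocytes along a gradient by binding G protein-coupled receptors on the cell surface. CXC ligands with a glutamate-leucine-arginine motif attract neutrophils, the interferon-induced CXC ligands attract activated T and NK cells, and CC ligands attract mainly monocytes, dendritic cells, eosinophils and lymphocytes. In the lung they govern the traffic of leukocytes between blood, airways and lymphatics, and tumour cells, stroma and leukocytes can all make them.

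The promoters of 2 kinds of ligand gene are shown: the CXCR2 ligand genes Cxcl1, Cxcl2 and Cxcl3, and the interferon-induced gene Cxcl10. Cxcl2 and Cxcl3 differed from Cxcl10 in how they varied between libraries, and Cxcl1 did not vary like Cxcl2 and Cxcl3. Of the 56 members, 43 had an entry in the RefSeq promoter table (assembly GRCm38.p6), and a window of 250 bases before the annotated start was searched on both strands. In the first 3 sequences, the 120 bases before the start, capitals mark a kappaB match (GGGA and TTCC set 2 bases apart). The match on the given strand and the match on the other strand overlap there, shifted by 1 base. In Cxcl10, 250 bases, capitals mark in order an interferon-stimulated response element (ISRE, GAAA and GAAA set 2 bases apart), a kappaB match and an AP-1 match (letters TGANTCA).
Cxcl1 (GRCm38.p6 chr5:90891125-90891244, plus strand): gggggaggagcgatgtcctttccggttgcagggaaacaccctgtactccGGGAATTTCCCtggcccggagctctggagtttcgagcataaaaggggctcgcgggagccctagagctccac
Cxcl2 (chr5:90903779-90903898, plus strand): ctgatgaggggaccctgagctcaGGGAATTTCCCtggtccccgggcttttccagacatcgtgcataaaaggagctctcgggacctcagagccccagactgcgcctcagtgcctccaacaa
Cxcl3 (chr5:90785981-90786100, plus strand): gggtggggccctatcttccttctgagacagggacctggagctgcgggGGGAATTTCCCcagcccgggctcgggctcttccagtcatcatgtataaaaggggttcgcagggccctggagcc
Cxcl10 (chr5:92348890-92349139, minus strand): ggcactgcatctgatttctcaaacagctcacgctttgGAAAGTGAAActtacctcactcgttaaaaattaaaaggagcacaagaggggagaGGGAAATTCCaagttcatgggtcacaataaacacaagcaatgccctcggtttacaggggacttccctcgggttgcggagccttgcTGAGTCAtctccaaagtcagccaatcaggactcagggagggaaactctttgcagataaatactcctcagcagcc
The kappaB letters stood in 1.21% of the 32807 promoters of the table and in 6 of the 43 members (Ccl1, Ccr3, Cxcl1, Cxcl2, Cxcl3 and Cxcl10). The ISRE letters stood in 2.97% of all promoters and in Ccl19, Cxcl10 and Cxcl14. AP-1 letters were found in 6.75% of promoters and in 6 members, and a gamma-interferon-activated site (GAS, letters TTCNNNGAA) in 7.02% of promoters and in 4 members (Ccl17, Ccr1l1, Ccr6 and Cxcl14). A match is a description of the letters in this window and no measurement of binding.

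Counts per library summed to between 15263375 and 16755228, so that 3 counts, taken as the floor of detection, were 0.173 to 0.204 CPM. This floor covers counting error only. The members held 0.145% and 0.140% of the counts in saline and 0.189% and 0.168% after treatment. Of the 56, 52 had a count in at least 1 library, and 38 (24 ligands and 14 receptors) had enough counts to be tested among 15167 genes.

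No member passed an adjusted p of 0.05 between cmLumiOpto/PARPi and saline in edgeR's quasi-likelihood test (Benjamini-Hochberg), and neither did any other gene (0.0% of 15167). At an unadjusted p under 0.05, 6 members were higher after treatment (Ccl17, Ccl22, Ccl11, Cxcl5, Cxcl17 and Cxcr4) and 0 were lower, where 9.21% of all genes were higher and 12% lower. DESeq2, fitted to the same counts, gave 1 member with an adjusted p under 0.05, Cxcl17, among 3.7% of the genes it fitted. Without the filter on low counts, 15 members passed adjustment in edgeR, each higher, where 3.67% of all genes were called higher. Treated libraries were both higher than either saline library in 14 of the 38 members, against 27.4% of all genes, and below them in 0, against 27.8% of all genes. The log2 fold change was above 0 in 31 of 38 (all genes 52.0%), with a median of 0.77 over the members tested and 0.02 over all genes. Ligands had a median of 0.81 (20 of 24 above 0) and receptors a median of 0.64 (11 of 14).

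Chemokine genes are short, and the change moved with gene length over the whole table. Of the 38 members, 20 were among the shortest 3034 genes tested (57 to 2093 bases). Over those 3034 genes the median log2 fold change was 0.31, 75.0% of genes were above 0, 47.9% lay above both saline libraries and 20.1% were higher at an unadjusted p under 0.05, whereas over the 3034 longest genes the median was -0.27 and 2.70% were higher. With the trend on length and level entered as an offset, 0 of the 38 members had an unadjusted p under 0.05 (all genes, higher: 6.63%). The direction of the log2 fold change stayed the same in 36 members and turned in 2. With 2 libraries against 2, an exact permutation test over libraries cannot give a two-sided p below 0.333. No source says how independent the libraries of a group are beyond their labels. The p-values thus set the group difference against the spread between these libraries only, estimated partly from all genes. In bulk RNA, fewer cells of a type and less RNA per cell cannot be told apart.

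**Figure D1:**
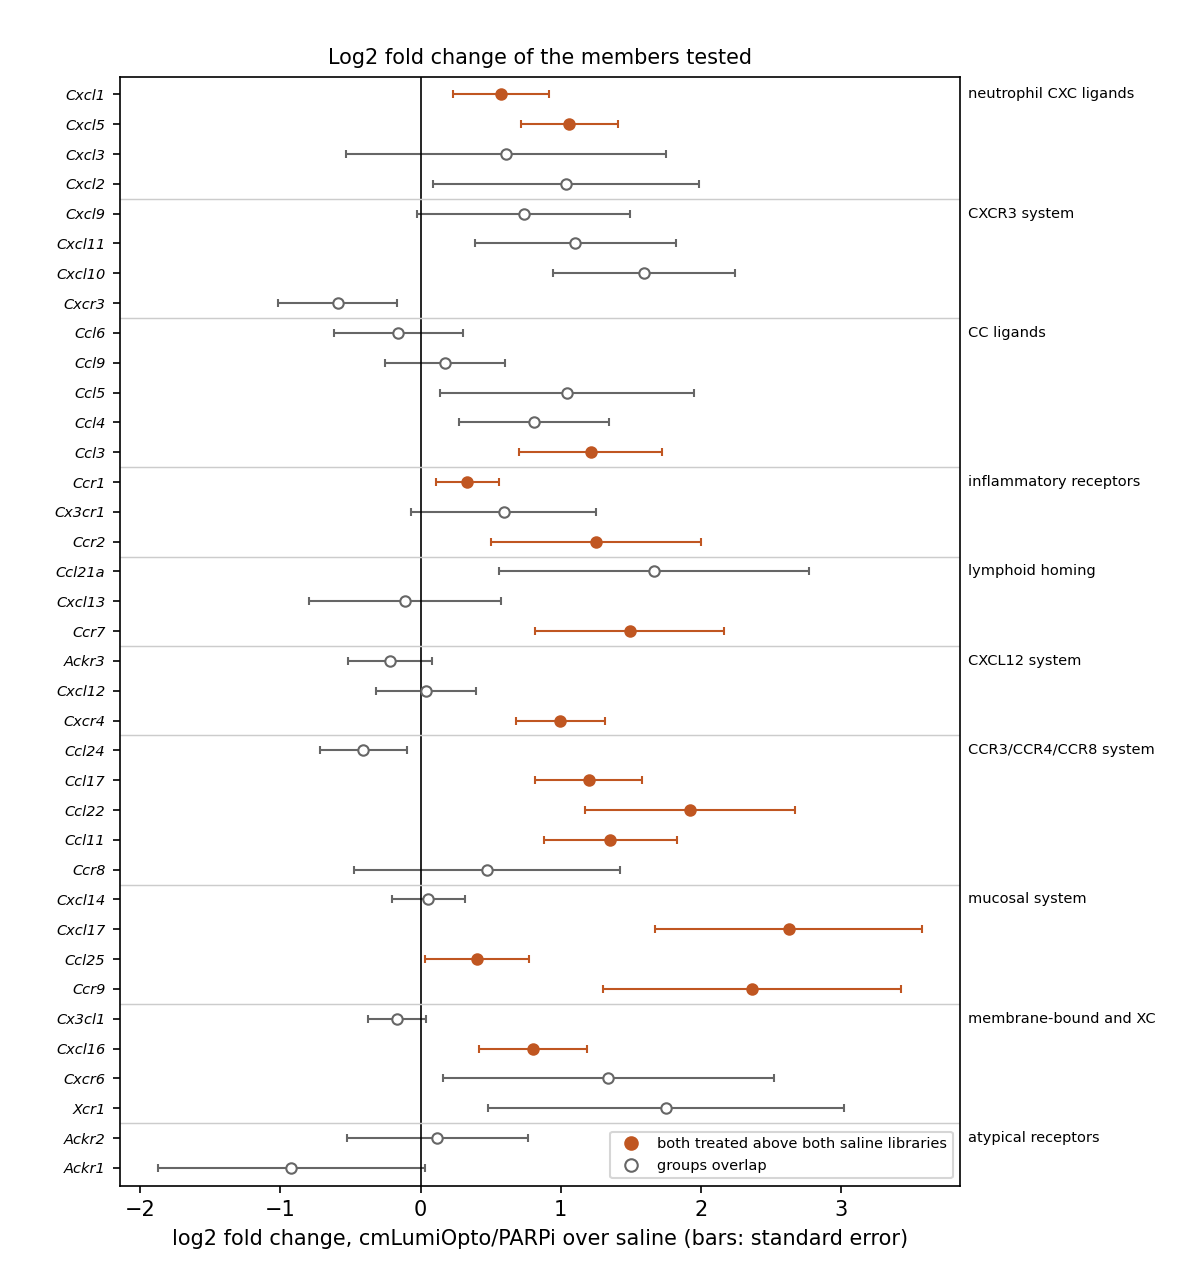
Log2 fold change of cmLumiOpto/PARPi over saline (x axis) for 37 of the tested members, grouped by role, with bars for the standard error of edgeR's fit (2 libraries per group). Filled points are the 14 members with both treated values above both saline values, and Cxcl17 and Ccr9 lie farthest to the right with wide bars.

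The neutrophil-attracting ligands Cxcl1, Cxcl2, Cxcl3 and Cxcl5 lie together on chr5 between 90759360 and 90905938 (GRCm38) and bind CXCR2. Cxcl5 (ENSMUSG00000029371), known from lung epithelium, had 2.70 and 3.54 CPM in saline and 7.20 and 5.84 CPM after treatment. Both treated libraries were above both saline libraries, with a log2 fold change of 1.06 ± 0.35 (SE) and an adjusted p of 0.184 in edgeR's quasi-likelihood test. Cxcl1, made by epithelium, endothelium and macrophages on inflammatory stimuli, had 4.39 and 6.68 CPM in saline and 9.33 and 7.16 CPM after treatment. These groups did not overlap either, although the nearest values differed by little, and the log2 fold change was 0.58 ± 0.34. Cxcl2 and Cxcl3, released chiefly by myeloid cells, took another course. Cxcl2 had 0.69 and 2.86 CPM in saline and 1.21 and 6.08 CPM in the treated libraries. Cxcl3 had 0.63 and 5.18 CPM in saline and 1.15 and 7.70 CPM after treatment. In both genes 1 library of each group was low and the other high, with a ratio of 8.26 between the saline libraries for Cxcl3, and the groups overlapped. The fold changes of Cxcl2 (1.04 ± 0.95) and Cxcl3 (0.61 ± 1.14) were about as large as their errors or smaller. Cxcl1 showed no such split between the libraries of a group. The neutrophil receptor gene Cxcr1 had 7 and 0 counts in saline and 9 and 12 counts after treatment and was too low to test. Neutrophil markers (9 of 9 detected) summed to 1351 and 604 CPM in saline and to 812 and 1656 CPM after treatment. This sum differed by more within a group than between groups. It was higher in saline 1, where Cxcl2 and Cxcl3 were low, and in treated 2, where they were high. Among the 9 genes, 7 overlapped between the groups. Mmp8 was lower in both treated libraries, with 31.79 and 71.14 CPM in saline and 15.37 and 27.44 CPM after treatment. Csf3r was higher in both, with 45.97 and 25.01 CPM against 52.27 and 49.16 CPM. The part of the neutrophil markers in the values of these ligands was not tested.

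Cxcl9, Cxcl10 and Cxcl11, the interferon-induced ligands of CXCR3, are neighbours on chr5 between 92321347 and 92365485. One treated library stood above the other 3 in each of them. Cxcl9 had 108 and 49.5 CPM in saline and 221 and 41.5 CPM after treatment. Cxcl10 (ENSMUSG00000034855) had 15.7 and 8.11 CPM against 56.8 and 15.2 CPM. Cxcl11 had 26.7 and 13.8 CPM against 71.9 and 15 CPM. In all 3 genes the groups overlapped, because treated 2 was below saline 1. The log2 fold change was largest for Cxcl10 (1.59 ± 0.65, edgeR adjusted p = 0.235), and those of Cxcl11 (1.10 ± 0.72) and Cxcl9 (0.74 ± 0.76) were closer to their errors. Without treated 1, the fitted change was 0.35 for Cxcl10, -0.44 for Cxcl11 and -0.93 for Cxcl9. Cxcr3, the receptor of activated T and NK cells, did not follow its ligands: it had 6.02 and 11.0 CPM in saline and 6.97 and 4.33 CPM after treatment, with the highest value in saline 2, where the 3 ligands were low. Its log2 fold change was -0.59 ± 0.42. Exons of Cxcl10 overlap those of Art3 on the other strand, which had 37 and 15 counts in saline and 67 and 30 after treatment, and reads of such a pair cannot be told apart where strand was not used.

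Other interferon-related genes varied in the same libraries. Irf7, itself interferon-induced, had 52.2 and 20.6 CPM in saline and 114 and 35.7 CPM after treatment, again with treated 1 the highest library. Ifng, the gene of interferon gamma, had 0.31 and 0.61 CPM in saline and 2.13 and 0.18 CPM after treatment, too low to test. Markers of T cells (10 of 10 detected) summed to 66.1 and 25.1 CPM in saline and to 134 and 41.8 CPM after treatment, and those of NK cells (7 of 8 detected, Klra8 at 0) to 20.8 and 18.2 CPM against 44.5 and 10.8 CPM, with Prf1 at 11.9 and 12.3 CPM in saline and 12.8 and 2.53 CPM after treatment. Treated 1 was highest in both marker lists, and their part in the ligand values was not tested.

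**Figure D2:**
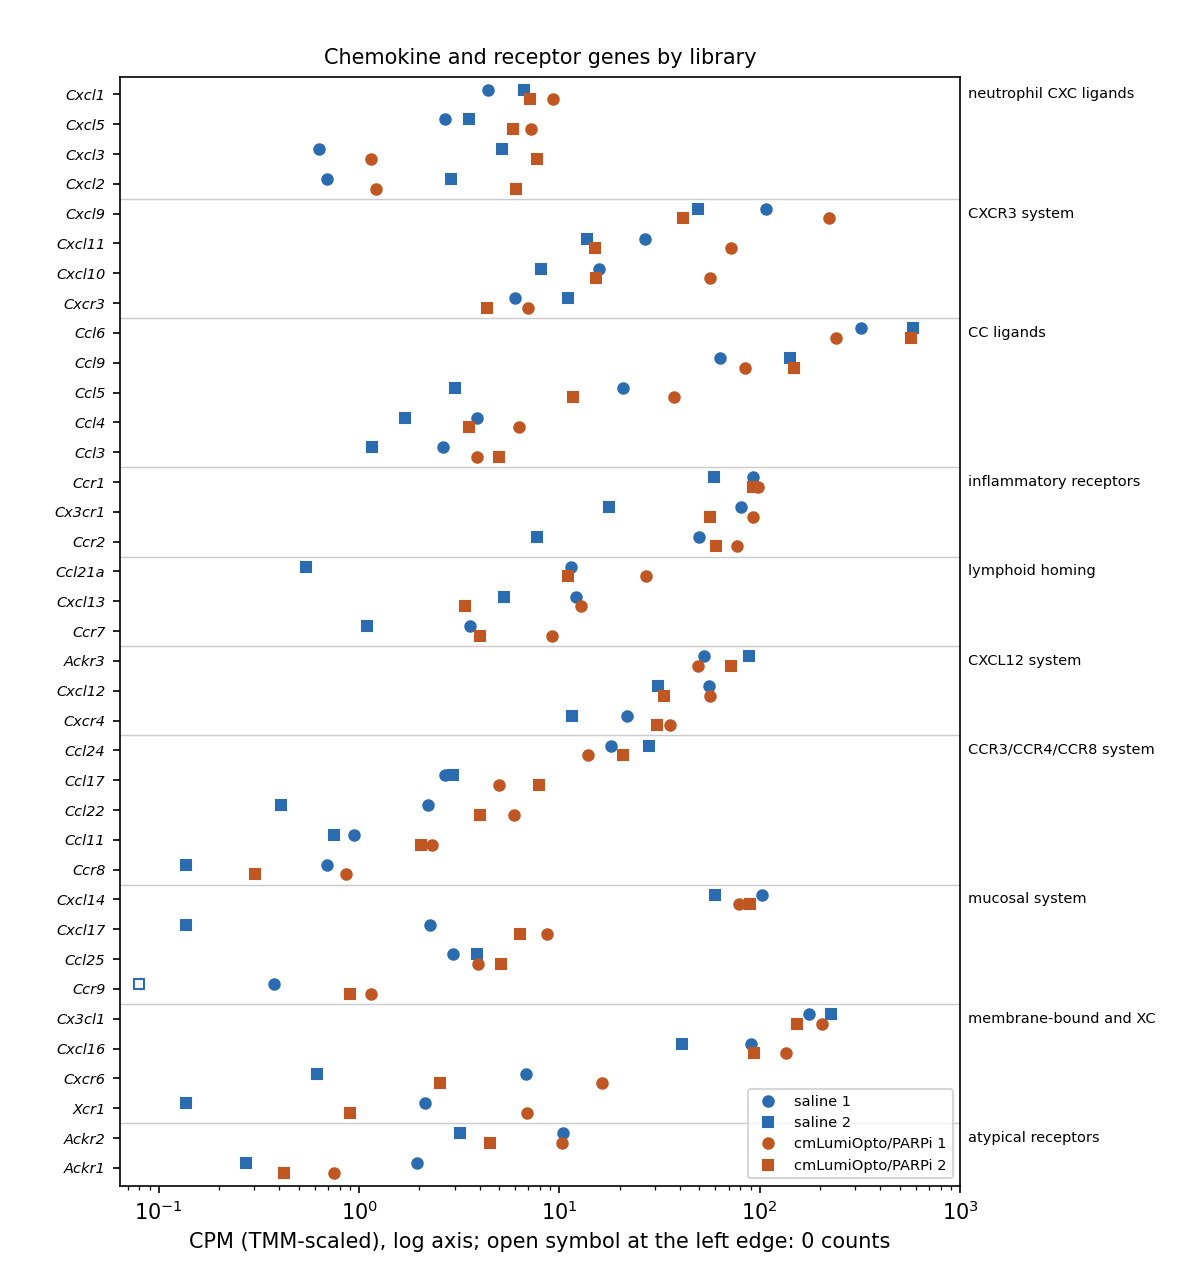
Level of 37 of the tested members in each of the 4 libraries, in CPM on a log axis, with the members grouped by role and a point for each library (saline or cmLumiOpto/PARPi, numbered as in the labels). The open symbol marks 0 counts, Ccl6 lies farthest to the right in each library, Cxcl9, Cxcl10 and Cxcl11 each have 1 treated library apart from the rest, and Ccl21a spans the range from 0.55 to 27.1 CPM.

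Of the CC ligands of monocytes, macrophages and T cells, Ccl3, Ccl4, Ccl5, Ccl6 and Ccl9 lie on chr11 between 83525778 and 83664683. Ccl6, a constitutive macrophage chemokine of rodents, had the highest level per length of the members, with 319 and 585 CPM in saline and 241 and 570 CPM after treatment. Ccl9, closely related to it, had 63.7 and 142 CPM in saline and 84.5 and 148 CPM after treatment. In both genes the libraries numbered 2 were high and those numbered 1 low, whatever the group, and the log2 fold changes were -0.16 ± 0.46 and 0.18 ± 0.43. Alveolar macrophage markers (6 of 6 detected) summed to 132 and 438 CPM in saline and to 127 and 151 CPM after treatment, highest in saline 2. Chil3 alone held 116 and 423 CPM of this sum in saline and 76.2 and 124 CPM after treatment, whereas Ear2 and Car4 were higher in both treated libraries. Their part in the values of Ccl6 and Ccl9 was not tested. Ccl5, released by T cells, NK cells and macrophages, was opposite in order: it had 20.7 and 2.998 CPM in saline and 37.3 and 11.7 CPM in the treated libraries. The groups overlapped and the log2 fold change was 1.04 ± 0.91. Ccl3, a ligand of activated macrophages, had 2.63 and 1.16 CPM in saline and 3.86 and 4.99 CPM after treatment, without overlap, and a log2 fold change of 1.22 ± 0.51 (edgeR adjusted p = 0.247). Its neighbour Ccl4 had 3.89 and 1.70 CPM against 6.28 and 3.55 CPM, overlapping, with a log2 fold change of 0.81 ± 0.54.

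The receptors of monocytes and macrophages showed a low library in saline more than a step between groups. Ccr1, the receptor with the highest level per length, had 92.2 and 59.4 CPM in saline and 98.6 and 92.6 CPM after treatment. Both treated values were above saline, but saline 1 was only just under treated 2. Ccr2, the receptor that brings monocytes out of the bone marrow, had 50.04 and 7.77 CPM in saline and 77.0 and 60.8 CPM after treatment. These groups did not overlap, and the ratio of 6.44 between the saline libraries was larger than the 2.38-fold difference between the group means (log2 fold change 1.25 ± 0.75, edgeR adjusted p = 0.379). Without saline 1, the fitted log2 fold change of Ccr2 was 3.13, and without saline 2 it was 0.44. Cx3cr1, the fractalkine receptor of patrolling monocytes, had 81.0 and 17.7 CPM in saline and 92.4 and 56.4 CPM after treatment. Saline 2 was the lowest library in each of these 3 receptors. Ccr1l1 had 1 count in saline 1 and 0 elsewhere. Monocyte and macrophage markers (10 of 10 detected) summed to 3664 and 2839 CPM in saline and to 5625 and 3983 CPM after treatment, and Lyz2 alone made up 1693 and 1141 CPM in saline and 3619 and 2441 CPM after treatment. The complement genes C1qa, C1qb and C1qc, which mark tissue macrophages, overlapped between the groups, whereas Mrc1 was lower in both treated libraries, with 213 and 396 CPM in saline and 137 and 154 CPM after treatment. Their part in the receptor values was not tested.

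In the lymphoid homing group, the ligands CCL19 and CCL21 guide dendritic cells and naive T cells through the receptor CCR7, and CXCL13 guides B cells through CXCR5. Ccl21a (ENSMUSG00000094686, chr4:42772860-42773993) had 11.4 and 0.55 CPM in saline and 27.1 and 11.1 CPM after treatment. The treated 2 value was just under that of saline 1, so the groups overlapped, and saline 2 was lower than saline 1 by a ratio of 20.9, the largest within-group ratio in this group of genes. Its log2 fold change was 1.67 ± 1.11, and reads of Ccl21a can be shared with its near-identical copies Ccl21b and Ccl21d, both listed at 0, so the split between the copies is uncertain. Ccr7 (ENSMUSG00000037944), the receptor of mature dendritic cells and naive T cells, had 3.58 and 1.09 CPM in saline and 9.15 and 4.03 CPM after treatment. Here the groups did not overlap, with a log2 fold change of 1.49 ± 0.68 and an edgeR adjusted p of 0.269. Cxcl13 had 12.1 and 5.32 CPM in saline and 12.8 and 3.37 CPM after treatment, with a log2 fold change of -0.11 ± 0.69. Ccl19 (0 and 1 counts in saline, 4 and 1 after treatment) and Cxcr5 (3 and 4 counts, then 10 and 11) were too low to test. B cell markers (7 of 7 detected) summed to 46.6 and 4.97 CPM in saline and to 53.8 and 32.1 CPM after treatment, of which Ighm held 41.4 and 2.86 CPM in saline and 42.4 and 23.6 CPM after treatment, and Ms4a1 was at 0 in saline 2. Dendritic cell markers (8 of 8 detected) summed to 144 and 109 CPM against 181 and 110 CPM, of which Irf8 held 86.0 to 130 CPM. Lymphatic endothelial markers (6 of 6) summed to 107 and 70.2 CPM against 138 and 93.0 CPM. Pdpn (29.6 to 63.2 CPM) and Lyve1 (25.6 to 48.2 CPM) held most of that lymphatic sum. Prox1 had at most 1.21 CPM, and Reln was at 0 in saline 2. Saline 2 was the lowest library in the B cell and lymphatic endothelial lists, as it was for Ccl21a and Ccr7. In the dendritic cell list the sums of saline 2 and treated 2 were nearly equal. There Irf8 (91.2 CPM in saline 2, 86.0 CPM in treated 2) and Zbtb46 were lowest in treated 2, and the other markers in saline 2. The part of B cells, dendritic cells and lymphatic endothelium was not tested.

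Cxcr4 (ENSMUSG00000045382, chr1:128588199-128592293), the receptor of CXCL12 on leukocytes and many tumour cells, had 21.6 and 11.5 CPM in saline and 35.6 and 30.6 CPM after treatment. Both treated libraries were above both saline libraries, a 2.00-fold difference of means, with a log2 fold change of 1.00 ± 0.32 (edgeR adjusted p = 0.178). The value stayed between 0.60 and 1.51 when each library was left out in turn. Its ligand gene Cxcl12, made by stroma and endothelium, had 56.1 and 31.2 CPM in saline and 56.3 and 33.5 CPM in the treated libraries. Each treated value had a saline value close to it, and the log2 fold change was 0.04 ± 0.36. Differences of the size of that error, and some larger ones, are undetectable here. Ackr3, the scavenging receptor that removes CXCL12, had 52.7 and 88.2 CPM against 49.2 and 72.1 CPM, with a log2 fold change of -0.22 ± 0.30. Fibroblasts are a known source of Cxcl12, and their markers (7 of 7 detected) summed to 5166 and 3550 CPM in saline and to 1702 and 1918 CPM after treatment. Of these 7, 6 were lower in both treated libraries, against 27.8% of all genes. They are long genes (median 8702 bases), and the 3034 longest genes tested had a median log2 fold change of -0.27. The part of fibroblasts in the values of Cxcl12 was not tested. Cxcr4 and Cxcl12 also differ in length: Cxcr4 is among the 3034 shortest genes tested and Cxcl12 among the 3034 longest.

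Ccl17 and Ccl22, the ligands of CCR4 that dendritic cells and macrophages make, stand close together on chr8 with Cx3cl1 between 94745590 and 94812036. Ccl17 (ENSMUSG00000031780) had 2.70 and 2.93 CPM in saline and 5.01 and 7.94 CPM after treatment. Ccl22 (ENSMUSG00000031779) had 2.20 and 0.41 CPM in saline and 5.93 and 4.03 CPM after treatment. Neither gene overlapped between the groups, and the 2 saline values of Ccl17 were nearly equal whereas those of Ccl22 differed by a ratio of 5.37. The log2 fold change was 1.20 ± 0.38 for Ccl17 (edgeR adjusted p = 0.178) and 1.92 ± 0.75 for Ccl22 (edgeR adjusted p = 0.226). For Ccl22 it was 1.16 without saline 2 and 3.57 without saline 1. Ccl17 was the 1 member with an unadjusted p under 0.05 in the fit without treated 1. Their receptor gene Ccr4 had 2 and 1 counts in saline and 9 and 3 after treatment, under the filter. Ccl11 (eotaxin, ENSMUSG00000020676, chr11:82057823-82062955), which attracts eosinophils through CCR3, had 0.94 and 0.75 CPM in saline and 2.30 and 2.05 CPM after treatment. These values were close within each group and did not overlap, with a log2 fold change of 1.35 ± 0.48 and an edgeR adjusted p of 0.200. Ccl24, the other eotaxin measured, was in contrast lower after treatment on average: it had 18.0 and 28.0 CPM in saline and 13.9 and 20.8 CPM after treatment, overlapping, with a log2 fold change of -0.41 ± 0.31. Ccr3 had 1 and 1 counts in saline and 5 and 8 counts after treatment. Ccr8 had 0.69 and 0.14 CPM against 0.86 and 0.30 CPM, its ligand gene Ccl1 had 3 and 2 counts against 8 and 3, and Ccl26 had no count in any library.

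Among the genes of mucosal surfaces, Cxcl17 (ENSMUSG00000060188, chr7:25400053-25412886), a chemoattractant of airway and other mucosal epithelia, had the largest log2 fold change of the 38 members tested with all 4 libraries in the fit. It had 36 and 2 counts in saline (2.26 and 0.14 CPM) and 150 and 106 counts after treatment (8.64 and 6.38 CPM). Both treated libraries were above both saline libraries, and saline 2 was under the floor of 3 counts. The log2 fold change was 2.63 ± 0.95 (edgeR adjusted p = 0.205), and DESeq2 gave an adjusted p of 0.0429. It was 1.71 without saline 2 and 5.69 without saline 1, the latter against the library with 2 counts, and in that fit Ccr9, set against 0 counts, had a larger value. Airway epithelial markers (7 of 7 detected) were also higher after treatment: they summed to 1156 and 83.5 CPM in saline and to 5706 and 3198 CPM after treatment. At an unadjusted p under 0.05 in edgeR's test 7 of 7 were higher, against 9.21% of all genes. Of these 7, 5 were among the shortest 3034 genes tested, where 20.1% were higher. Scgb1a1, the club cell secretoglobin, held most of this sum, with 1088 and 74.7 CPM in saline and 5305 and 2794 CPM after treatment. It had the same order of the 4 libraries as Cxcl17, as did Scgb3a2, Foxj1 and Cyp2f2. The remaining markers were higher in treated 2 than in treated 1: Scgb3a1 (14.3 and 142.5 CPM after treatment), Bpifa1 (1.84 and 63.1 CPM) and Muc5b (1.73 and 9.03 CPM). Alveolar type 2 markers (7 of 7 detected) summed to 1665 and 443 CPM against 8072 and 2880 CPM. Sftpc held 1020 and 176 CPM of this sum in saline and 6153 and 2092 CPM after treatment. In 6 of the 7 genes both treated libraries were above both saline libraries. Abca3 was lower in both treated libraries, with 146.7 and 129 CPM in saline and 124.6 and 94.04 CPM after treatment. The part of the amount of airway or alveolar epithelium in a library in the value of Cxcl17 was not tested.

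Ccr9, the gut homing receptor, had 6 and 0 counts in saline and 20 and 15 after treatment (0.38 and 0 CPM, then 1.15 and 0.90 CPM). The groups did not overlap, and the log2 fold change of 2.37 ± 1.06 (edgeR adjusted p = 0.266) rests on these few counts. Its ligand gene Ccl25 had 2.95 and 3.88 CPM against 3.92 and 5.11 CPM, a log2 fold change of 0.40 ± 0.37. Exons of Ccl25 overlap those of Elavl1 on the other strand, which had 1741 to 2113 counts per library, and whether the counting used strand is not stated, so this value is uncertain. Cxcl14, an epithelial and stromal chemokine, was among the most abundant members per length, with 103 and 59.8 CPM in saline and 78.9 and 89.8 CPM after treatment, and its log2 fold change was 0.06 ± 0.26. Ccl20 and its receptor gene Ccr6 had at most 2 counts in any library, and Ccl28 at most 6. Ccr10 had 1 and 0 counts in saline and 5 and 2 after treatment. Ccl27a had at most 1 count and its near-identical copy Ccl27b had 0 in every library.

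The membrane-bound chemokine genes Cx3cl1 and Cxcl16 were both among the upper members per length. Cx3cl1 (fractalkine), an epithelial and endothelial adhesion ligand, had 176 and 227 CPM in saline and 206 and 153 CPM after treatment. The groups overlapped, with a log2 fold change of -0.17 ± 0.21, and its receptor Cx3cr1 is described above with the monocyte receptors. Cxcl16 (ENSMUSG00000018920, chr11:70453983-70459984), made by macrophages and dendritic cells, had 90.3 and 41.1 CPM in saline and 136 and 93.9 CPM after treatment. Its groups did not overlap, but saline 1 was only just under treated 2 and the saline libraries differed by a ratio of 2.20 (log2 fold change 0.80 ± 0.38, edgeR adjusted p = 0.290). Exons of Cxcl16 and Zmynd15 overlap on opposite strands, and Zmynd15 had 164 and 48 counts in saline and 386 and 198 after treatment. Cxcr6, the CXCL16 receptor of tissue-resident T and NKT cells, had 6.84 and 0.61 CPM in saline and 16.4 and 2.53 CPM after treatment. In Cxcr6 the spread within each group exceeded the difference between groups, with ratios of 11.2 and 6.49. Xcr1, the receptor of cross-presenting dendritic cells, had 2.13 and 0.14 CPM in saline and 6.85 and 0.90 CPM after treatment. Clec9a, another gene of those dendritic cells, had 2.70 and 0.41 CPM against 10.3 and 2.05 CPM, the same order of libraries. Xcl1, the ligand of Xcr1 made by NK and CD8 T cells, had 8 and 1 counts in saline and 40 and 10 after treatment, and was too low to test.

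The atypical receptors bind chemokines without G protein signalling and clear or transport them. Ackr1, of venular endothelium and erythroid cells, had 1.94 and 0.27 CPM in saline and 0.75 and 0.42 CPM after treatment, with a log2 fold change of -0.92 ± 0.95. Ackr2, of lymphatic endothelium, had 10.4 and 3.20 CPM against 10.3 and 4.51 CPM, a log2 fold change of 0.12 ± 0.65. Both overlapped between the groups, and saline 1 exceeded saline 2 in both by a ratio of 7.13 and 3.25. Endothelial markers (7 of 7 detected) summed to 507 and 395 CPM in saline and to 773 and 416 CPM after treatment, and their part was not tested. Ackr4, a scavenger of CCL19 and CCL21, had 8 and 9 counts in saline and 18 and 1 after treatment.

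The spread within the saline group was the main feature of these genes. Saline 1 exceeded saline 2 by more than 1 on the log2 scale in 19 of the 38 members tested against 6.78% of all genes, and the reverse held in 3. In the treated group, treated 1 exceeded treated 2 by that much in 11 members (28.9%, all genes 7.34%) and the reverse again in 3. The median distance between the saline libraries was 1.13 over the members and 0.24 over all genes on the log2 scale. In 28 of 38 members (73.7%, all genes 42.6%) it was larger than the distance between the group means. Among members with more than 3 counts in each saline library, the largest ratios of saline 1 over saline 2 were those of Ccl21a (20.9), Cxcr6 (11.2), Ackr1 (7.13), Ccl5 (6.90) and Ccr2 (6.44). The 3 members higher in saline 2 by over 1 were Cxcl2, Cxcl3 and Ccl9. Leaving out a library changed the counts accordingly: at an unadjusted p under 0.05 there were 19 members higher without saline 1 (all genes, higher: 9.20%), 4 without saline 2 (4.22%), 1 without treated 1 (4.12%) and 11 without treated 2, of which 10 were higher (9.82%) and 1, Ccl6, was lower (11.8% of all genes lower). Without saline 1, Ccr2 and Cxcl17 also passed an adjusted p of 0.05 in edgeR's test, among 0.192% of genes, where the lone saline library was taken to vary like the treated ones.

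**Figure D3:**
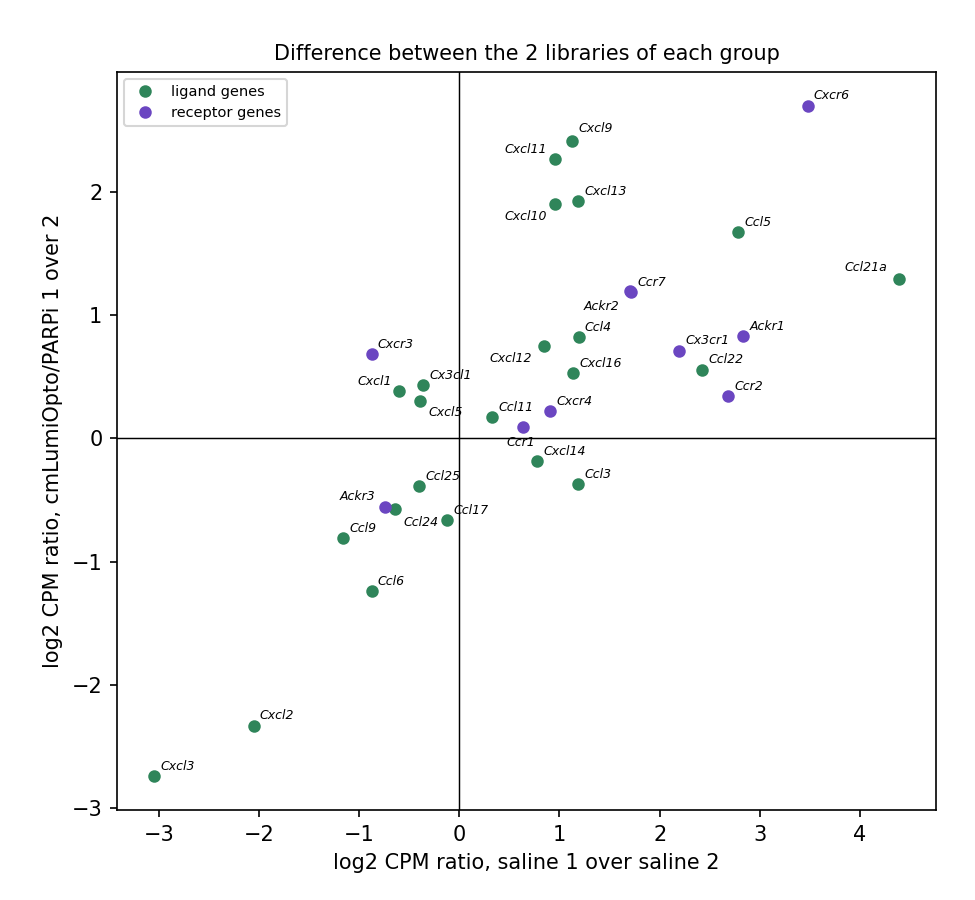
Ratio of the 2 libraries within each group for 33 members with enough counts in each library, saline on the x axis and cmLumiOpto/PARPi on the y axis, both as log2 of CPM in library 1 over library 2. The libraries share a number by label and come from different mice, and 19 members lie at upper right with both ratios above 1 while 8, among them Cxcl2, Cxcl3, Ccl6 and Ccl9, lie at lower left.

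**Figure D4:**
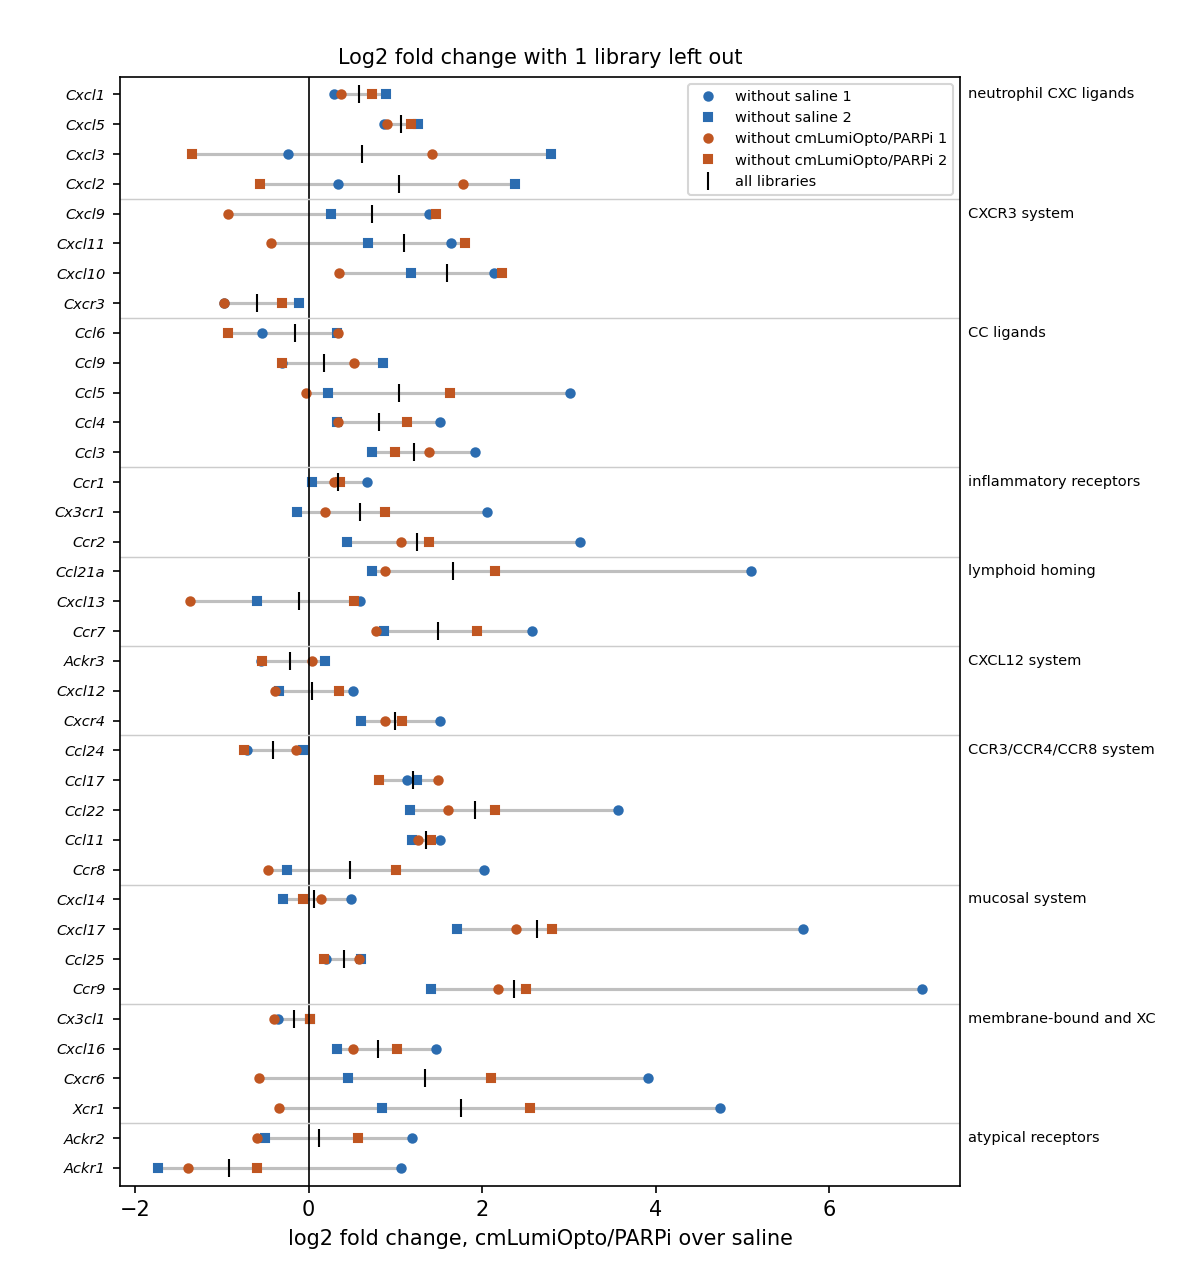
Fitted log2 fold change of cmLumiOpto/PARPi over saline (x axis) for 37 of the tested members with each library left out in turn (coloured marks) and with all 4 (black ticks). Cxcl5, Ccl17, Ccl11 and Cxcr4 (0.60 to 1.51) stay above 0, as do other members such as Cxcl1 (0.29 to 0.89) and Ccl25 (0.18 to 0.60). Cxcl9, Cxcl11 and Cxcl3 cross 0. The points of Ccr9, Cxcl17 and Ccl21a at far right are set against a saline library with 0, 2 and 8 counts. That of Ccr9, against 0 counts, depends on the prior count.

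Between genes, levels were compared per kilobase of gene length (CPM per kb). Ccl6 stood first, with a mean of 252 CPM per kb in saline and 226 after treatment, and its lowest library (134) was above the highest of any other member (73.2, Cxcl9). Cx3cl1 (51.2 and 45.6) and Cxcl14 (44.4 and 46.2) followed and did not differ beyond their spread, as their library values of 38.9 to 57.7 and 32.7 to 56.1 overlapped. Next came Ccl9 (33.8 and 38.2), Cxcl9 (26.1 and 43.5), Ccr1 (26.8 and 33.7), Cxcl16 (21.8 and 38.0) and Ackr3 (21.04 and 18.1), again with overlapping values. Ccr1 and Ackr3 thus led the receptors, followed by Cxcr4 (9.17 and 18.3) and Cx3cr1 (10.9 and 16.5).

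Other genes of the pathway were taken from lists and are read against the 9.21% of all genes higher and 12% lower at an unadjusted p under 0.05. Of 32 genes of receptor signalling (G proteins, arrestins, receptor kinases, Rac and integrin genes), 1 was higher (3.12%) and 2 were lower at that p, with a median log2 fold change of -0.10. Grk5, a kinase that turns off G protein-coupled receptors, had 21.6 and 20.03 CPM in saline and 41.6 and 29 CPM after treatment. Grk6, a related kinase that acts on CXCR4, had 106 and 115 CPM against 67.8 and 92.3 CPM. Jak3 had 125 and 141 CPM against 88.8 and 101 CPM. All 3 were without overlap between the groups, and none passed adjustment in edgeR's test (adjusted p = 0.165 for Grk5, 0.226 for Grk6 and 0.163 for Jak3). Of 9 chemokine or chemokine-like genes with other symbols, 3 were higher (33.3%) and 0 lower. Ppbp, the platelet CXC ligand, had 0.75 and 0.41 CPM in saline and 1.5 and 1.87 CPM after treatment. Cklf had 6.84 and 7.29 CPM against 13.3 and 11.3 CPM, and Cmtm7 39.3 and 33.2 CPM against 47.2 and 48.6 CPM. Of the 16 inducers of chemokines, 13 were tested (Il17a was at 0), and 2 were higher (15.4%) and 1 lower. Il1b, a strong inducer of the neutrophil ligands, had 24.4 and 13.4 CPM in saline and 44.4 and 26.8 CPM after treatment. Relb had 25.02 and 26.9 CPM against 34.7 and 37.2 CPM. Tnfaip3, which restrains NF-kappaB, had 68.3 and 59.3 CPM against 46.6 and 50 CPM, the reverse order.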

How the data were processed

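Per the study's methods, the authors used HISAT2 to map reads to GRCm38, while the submitters' processing notes name mm39. They deposited counts of reads per gene, not normalised, and these counts were used as deposited. Of the genes found by identifier in GENCODE M21 (GRCm38), 2.76% had the same position there, so positions were taken from GENCODE M21 by identifier. The sources name different RNA kits. The members and lists were chosen with earlier results of these data known. Differential expression was tested with edgeR 4.0.16 in R 4.3.3 (TMM, filterByExpr at min.count 10, quasi-likelihood F test, Benjamini-Hochberg adjustment over 15167 genes), with DESeq2 1.42.0 as an alternative. CPM used TMM factors, and the SE is the size of the log2 fold change over the square root of F. The fits were tested on simulated data. Libraries of a group were further apart than counting noise (chi-square per degree of freedom 24.1 in saline, 41.1 in treated). Named were members past the filter with an unadjusted p under 0.05 or 20 CPM in any library, their partners, and up to 3 genes per pathway list with the smallest p. Some items are counted in the totals and not reported here. Alternatives were RLE scaling, no filter, edgeR without its legacy option, a replicate block, each library left out, and a length offset (loess, span 0.5).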

Additional observations from a re-analysis of the deposited data

How the results depend on the processing

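The count of members past an adjusted p of 0.05, 0 as reported, was 1 with DESeq2 (Cxcl17), 15 with no filter on low counts (all higher; 3.67% of all genes were called higher) and 0 to 2 with each library left out. The count at an unadjusted p under 0.05, 6 as reported, was 22 with no filter (all higher; 8.7% of all genes), 0 with the length offset, which was chosen after seeing the data, and 1 to 19 with each library left out. With the replicate number as a block, 11 members passed adjustment (all higher; 4.96% of all genes) and 20 were under an unadjusted p of 0.05 (all higher; 14.6% of all genes). The mice of a pair share only a number (Spearman's rho of their deviations was 0.298 over 15167 genes). With the length offset the log2 fold change turned to -0.14 for Ackr2 and to -0.16 for Cxcl14. With each library left out it ran from -1.73 to 1.07 for Ackr1, -0.60 to 1.19 for Ackr2, -0.55 to 0.19 for Ackr3, -0.030 to 3.01 for Ccl5, -0.93 to 0.33 for Ccl6, -0.30 to 0.85 for Ccl9, -0.47 to 2.02 for Ccr8, -0.40 to 0.011 for Cx3cl1, -0.14 to 2.06 for Cx3cr1, -0.44 to 1.81 for Cxcl11, -0.39 to 0.51 for Cxcl12, -1.37 to 0.59 for Cxcl13, -0.30 to 0.48 for Cxcl14, -0.56 to 2.37 for Cxcl2, -1.34 to 2.79 for Cxcl3, -0.93 to 1.46 for Cxcl9, -0.57 to 3.92 for Cxcr6 and -0.34 to 4.74 for Xcr1. The upper ends for Ccr8 and Xcr1 rest on a saline library with 2 counts. The other 20 members tested kept their direction under each alternative. Of these, the value with each library left out ran from 0.72 to 5.09 for Ccl21a, 1.42 to 7.06 for Ccr9, 1.71 to 5.69 for Cxcl17, 1.16 to 3.57 for Ccl22, 0.44 to 3.13 for Ccr2, 0.78 to 2.57 for Ccr7, 0.35 to 2.23 for Cxcl10, 0.73 to 1.91 for Ccl3, 0.32 to 1.51 for Ccl4, 0.33 to 1.47 for Cxcl16, 0.60 to 1.51 for Cxcr4, 0.29 to 0.89 for Cxcl1, 0.036 to 0.67 for Ccr1, 0.18 to 0.60 for Ccl25, -0.98 to -0.11 for Cxcr3 and -0.74 to -0.069 for Ccl24, and it moved by less than 1.5 times for Ccl17, Ccl11 and Cxcl5. Causes of these shifts were not tested beyond the settings named, and members under 3 counts in a library, such as Cxcl17, Xcr1 and Ccr9 in saline 2, are limited by depth.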
